A study of Mus musculus with 39 samples.

Results

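Islets of C57bl6/J mice at pregnancy day 12.5 were set against islets of non-pregnant C57bl6/J mice, to ask how gene expression in the endocrine pancreas differs near the middle of gestation. Each group had 4 arrays, chosen by the day of pregnancy given in the sample labels, and together they made up 8 of the 39 arrays of the series. Both groups were labelled wild type and carried no transgene, and the arrays of a group were labelled biological replicates. The ages of the mice, and whether islets of several animals were pooled for an array, were not given in the sources used here. Total RNA was hybridized to Affymetrix Mouse Gene 1.0 ST arrays, and the deposited log2 values were compared gene by gene with limma, using 1 probe set for each of 19938 genes. The spread between replicates was estimated from 31 arrays of 8 C57bl6/J groups (non-pregnant, days 3.5, 6.5, 9.5, 12.5, 15.5 and 18.5 of pregnancy, and 10 days post partum). The other 8 arrays, from Pdx1-creLate mice and wild type controls of the same backcross, stayed out of this model.

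The islets of Langerhans hold the insulin-secreting beta cells together with alpha, delta and pancreatic polypeptide cells. In rodents, placental lactogen and prolactin act on the prolactin receptor of beta cells and signal through the kinase JAK2 and the transcription factor STAT5. The islet is known to answer with more beta-cell division, more insulin secretion at a given glucose level and production of serotonin, so that the mother keeps up with the insulin resistance of pregnancy.

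Array medians were 6.2 to 6.3 in both groups, and the standard deviation of the values on an array was 1.81 to 1.86 at day 12.5 and 1.76 to 1.84 in non-pregnant islets. The label of the tissue was checked against endocrine markers, and glucagon (Gcg), islet amyloid polypeptide (Iapp), somatostatin (Sst), pancreatic polypeptide (Ppy) and insulin (Ins2) were among the brightest genes, with means of 12.5 or more in both groups. The X-inactivation transcript Xist, which female cells express, was at 9.9 to 10.2 at day 12.5 and at 10.2 to 10.5 in non-pregnant islets. Non-pregnant replicate 1 stood apart at the bright end. Its highest gene value was 13.1, while the highest on each day 12.5 array was 14.0 or 14.1 and on each other non-pregnant array also 14.0 or 14.1. Over the 50 brightest genes it lay a median of 0.30 below the middle of the 8 arrays (−0.30), against 0.00 to 0.05 for the others, so the hormone genes, Chga, Chgb, Pcsk1 and G6pc2 are given with and without it. Precision is limited by there being 4 arrays a group, and in bulk islets fewer cells of a type and less RNA per cell cannot be told apart. The p-values measure the spread between arrays labelled as biological replicates.

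At day 12.5, 1051 genes passed the test (adjusted p of limma under 0.05, called from here on), which is 5.27% of those tested. Of these, 813 were higher (4.08% of all genes) and 238 lower (1.19%). At least 2-fold differences were found for 51 of the higher genes and 3 of the lower ones, so the largest changes of the day were rises. The median difference over all 19938 genes was 0.00, and the 4 arrays of one group lay wholly beyond the 4 of the other for 866 of the called genes. Such separation was found for 6.85% of all genes. Higher genes made up 77.4% of the calls, a share that shrank to 60% (766 higher and 510 lower) after quantile normalization of all arrays and to 63.6% (817 and 468) with each array's SD as a covariate. Without non-pregnant replicate 2 the lower genes numbered 141. Of the genes with a RefSeq class, 804 protein-coding genes were higher and 228 lower, while 5 long non-coding RNA genes were higher and 6 lower.

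A gene of serotonin synthesis gave the largest difference in log2 values. Tph1, tryptophan hydroxylase 1, which catalyses the rate-limiting step of serotonin synthesis outside the brain, had log2 values of 9.3, 9.4, 10.0 and 9.0 at day 12.5, against 4.0, 4.3, 4.6 and 4.9 in non-pregnant islets. Every day 12.5 array lay more than 4 units above every non-pregnant array. The difference was 4.98 ± 0.22 on the log2 scale (standard error, SE; adjusted p = 3.56e-17). The files hold no detection call, so whether the low non-pregnant values of this and other genes lay above background was not tested, and no fold is given for the hydroxylases. Tph2, the isoform known from serotonergic neurons, had values of 7.0, 7.1, 7.3 and 7.5 at day 12.5, against 5.1, 4.8, 5.1 and 4.9 in non-pregnant islets. Its groups did not overlap, and it rose by 2.25 ± 0.13 (adjusted p = 5.93e-14).

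Of the 13 measured genes for serotonin synthesis, storage and breakdown, 4 were called higher and 0 lower, or 30.8% higher against 4.08% of all genes. The list's median difference was 0.10 against 0.00 for all genes. The other 2 higher genes rose far less than the hydroxylases. The vesicular monoamine transporter Slc18a1, which loads amines into granules, averaged 7.68 ± 0.21 at day 12.5 and 7.18 ± 0.05 in non-pregnant islets (SD, n = 4 each), a rise of 0.50 ± 0.10 (adjusted p = 0.000786). Ddc, the decarboxylase of the second step, was already bright in both groups, with 10.7 to 10.8 at day 12.5 and 10.4 to 10.6 in non-pregnant islets. Its difference of 0.28 ± 0.08 (adjusted p = 0.0358) did not hold without day 12.5 replicates 1, 3 or 4 (adjusted p = 0.094, 0.0877 and 0.0803) or without non-pregnant replicates 1, 3 or 4 (0.125, 0.074 and 0.0716), nor after quantile normalization (0.148). Among the 14 serotonin receptors, 0 were called. Htr2b, the receptor linked in mice to beta-cell growth in pregnancy, had 4.50 ± 0.12 at day 12.5 and 4.45 ± 0.13 in non-pregnant islets, and Htr1d had 4.73 ± 0.10 and 4.48 ± 0.15 in that order (difference 0.25, adjusted p = 0.141). These receptor values lay below the array medians of 6.2 to 6.3.

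**Figure D1:**
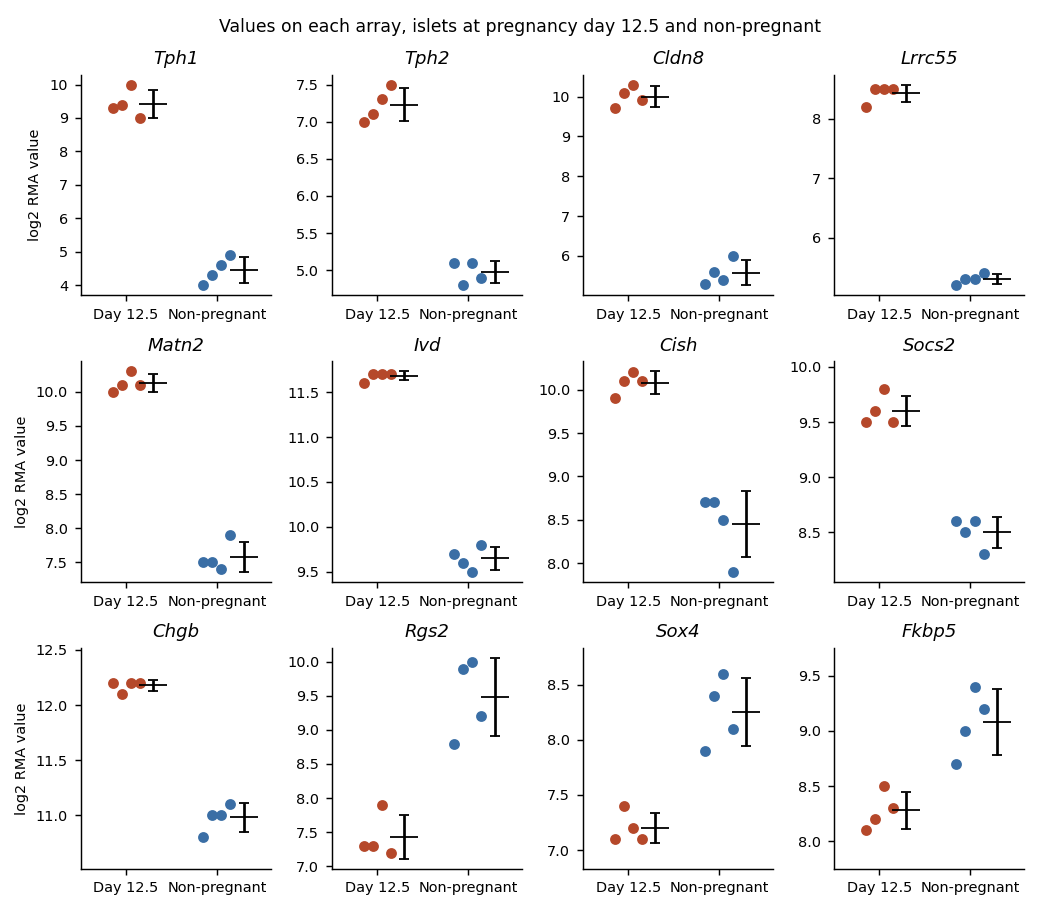
Log2 RMA values of 12 genes on each array, with day 12.5 at the left of each panel (red points) and non-pregnant at the right (blue points), and black bars for the group mean and SD of 4 arrays. The groups do not overlap for any of the 12: Tph1 lies at 9.0 to 10.0 at day 12.5 and at 4.0 to 4.9 in non-pregnant islets, and Rgs2 at 7.2 to 7.9 and at 8.8 to 10.0 in the same order. For genes among the 15 largest rises and falls, separate groups were part of the rule that picked them.

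Of 28 measured genes of the lactogen and STAT5 list, 4 were called higher (14.3%) and 1 lower (3.57%). The shares of all genes were 4.08% and 1.19%. A negative difference was found for 15, and the median was −0.05. Cish, a feedback inhibitor that STAT5 induces, had 9.9, 10.1, 10.2 and 10.1 at day 12.5, against 8.7, 8.7, 8.5 and 7.9 in non-pregnant islets. The groups were separate, with non-pregnant replicate 4 the lowest, and Cish rose by 1.63 ± 0.20 (3.08-fold, adjusted p = 5.47e-07). Socs2, a second inhibitor of the same family that limits growth hormone and prolactin signalling, had 9.5, 9.6, 9.8 and 9.5 at day 12.5 and 8.6, 8.5, 8.6 and 8.3 in non-pregnant islets, a rise of 1.10 ± 0.11 (adjusted p = 1.65e-08). Tnfrsf11b encodes osteoprotegerin, the decoy receptor for RANK ligand, and its values were 7.9, 8.1, 8.4 and 8.4 at day 12.5, against 6.5, 6.0, 6.3 and 6.5 in non-pregnant islets. It rose by 1.88 ± 0.16 (3.67-fold, adjusted p = 7.22e-10), with no overlap. The growth-promoting transcription factor Myc averaged 7.98 ± 0.19 at day 12.5 and 6.93 ± 0.49 in non-pregnant islets, a rise of 1.05 ± 0.22 (adjusted p = 0.00189).

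The lower gene of the list was the transducer Stat5b, which fell by 0.28 ± 0.07 (adjusted p = 0.00897). With the arrays centred on their medians the call of Stat5b ended (adjusted p = 0.0851), as it did with only these 2 groups in the model (0.0633). The lower genes of the list were 2 without day 12.5 replicate 4 or non-pregnant replicate 2, and 3 after quantile normalization. Stat5a (−0.23, adjusted p = 0.0559) and the growth hormone receptor Ghr (−0.25, adjusted p = 0.0641) were not called. The prolactin receptor itself was not analysed here.

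STAT5 binds the gamma-activated site, whose letters TTCNNNGAA read the same on both strands. Promoter windows of 300 bases, from 250 bases before to 50 bases after the transcription start, were taken from RefSeq (GRCm38.p6, 32851 windows of 27025 genes) and searched on both strands. Windows were at hand for 658 of the 813 genes called higher and for 180 of the 238 called lower. Some large rises given below, such as Cldn8 and Matn2, had no window and were not searched. Among the large rises with a window, Cish and Ivd are shown because their windows hold the motif, in capitals.
Cish (chr9:107296409-107296708, plus strand): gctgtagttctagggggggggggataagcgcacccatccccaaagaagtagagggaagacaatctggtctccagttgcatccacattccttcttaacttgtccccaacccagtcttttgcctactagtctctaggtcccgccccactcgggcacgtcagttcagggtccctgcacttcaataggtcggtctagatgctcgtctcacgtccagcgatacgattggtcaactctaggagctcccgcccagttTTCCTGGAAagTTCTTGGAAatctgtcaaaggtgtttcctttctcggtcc
Ivd (chr2:118861744-118862043, plus strand): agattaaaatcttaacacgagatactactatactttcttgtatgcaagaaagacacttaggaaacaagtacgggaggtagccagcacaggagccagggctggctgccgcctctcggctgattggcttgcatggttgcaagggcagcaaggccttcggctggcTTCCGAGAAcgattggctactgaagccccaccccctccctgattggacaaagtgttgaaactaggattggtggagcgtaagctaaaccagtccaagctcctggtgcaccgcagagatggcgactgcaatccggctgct
Cish held 2 matches, the first beginning at the start site itself (position 0), and Ivd held 1, at position −88. In the lactogen and STAT5 list the letters stood in 15.4% of 26 windows (3 of 21 genes with a window). Of the 3 genes with them 1, Cish, was called higher, and of the 18 without them 0 were. The other higher genes of that list had no window and were not searched. The letters occurred in 8.19% of the windows of genes called higher, in 5.24% of those called lower and in 8.3% of all windows. The share among higher genes was thus about that of all windows, and a match of these letters is a description and not a measured binding site.

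Junction, matrix and channel genes supplied the next largest rises. Cldn8, a claudin of tight junctions known for sealing epithelia of the kidney and gut, had 9.7, 10.1, 10.3 and 9.9 at day 12.5, against 5.3, 5.6, 5.4 and 6.0 in non-pregnant islets. The groups were far apart, and it rose by 4.43 ± 0.18 (adjusted p = 4.53e-18). Cldn8 was the 1 gene called among 24 measured claudin and tight-junction genes, whose median difference was −0.01. Lrrc55, an accessory subunit of the large-conductance BK potassium channel, had 8.2, 8.5, 8.5 and 8.5 at day 12.5, against 5.2, 5.3, 5.3 and 5.4 in non-pregnant islets. All 4 day 12.5 arrays were high, with replicate 1 the lowest of them, and the rise was 3.13 ± 0.17 (adjusted p = 1.46e-14). It was likewise the 1 gene called among 9 BK channel subunits, with a list median of −0.08.

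Matn2, the extracellular matrix adaptor matrilin-2, had 10.0, 10.1, 10.3 and 10.1 at day 12.5 and 7.5, 7.5, 7.4 and 7.9 in non-pregnant islets, a rise of 2.55 ± 0.12 (5.86-fold, adjusted p = 4.72e-16). The groups did not overlap. A further 6 genes came from the 15 largest rises, which were picked among called genes with separate groups. Tmem255a, a transmembrane protein gene, rose by 1.95 ± 0.13 (adjusted p = 1.39e-12), and Neb, which encodes the thin-filament protein nebulin of muscle, averaged 7.05 ± 0.10 at day 12.5 and 5.35 ± 0.13 in non-pregnant islets (adjusted p = 7.26e-13). The guanylate-binding protein gene Gbp8 rose by 1.68 ± 0.18, and Car8, a carbonic anhydrase-related protein without catalytic activity, by 1.63 ± 0.10. Lonrf3 rose by 1.55 ± 0.15 and Sftpd, the lung collectin surfactant protein D, by 1.53 ± 0.11.

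Mitochondrial and peroxisomal enzymes of amino acid and lipid breakdown changed as single genes. Ivd, isovaleryl-CoA dehydrogenase of leucine breakdown, had 11.6, 11.7, 11.7 and 11.7 at day 12.5, against 9.7, 9.6, 9.5 and 9.8 in non-pregnant islets. The replicates agree within 0.3 in both groups, and the rise was 2.03 ± 0.10 (4.07-fold, adjusted p = 4.29e-16). Of 24 measured genes of branched-chain amino acid breakdown, 2 were called higher (8.33%, against 4.08% of all genes) and 0 lower, with a median of 0.08. The other was Bckdk, the kinase that switches off the branched-chain keto acid dehydrogenase, with 9.5, 9.6, 9.5 and 9.6 at day 12.5 and 9.0, 9.1, 9.0 and 8.9 in non-pregnant islets (difference 0.55, adjusted p = 1.42e-05).

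Ehhadh, the bifunctional enzyme of peroxisomal fatty-acid oxidation, had 8.2, 8.4, 8.6 and 8.5 at day 12.5 and 6.6, 6.7, 6.7 and 6.6 in non-pregnant islets, a rise of 1.78 ± 0.10 (3.42-fold, adjusted p = 4.35e-14). Among 25 fatty-acid oxidation genes 1 was called higher, Ehhadh, and 1 lower, the peroxisome factor Pex11a (−0.58 ± 0.11, adjusted p = 0.000505). That is 4% each way, where 4.08% of all genes were higher and 1.19% lower. Without non-pregnant replicate 3 the higher genes were 3, and without day 12.5 replicate 3 or non-pregnant replicate 4 the lower ones were 2. Of 23 genes of cholesterol synthesis, uptake and export, 3 were higher (13%) and 1 lower (4.35%), with a median of 0.05. Dhcr7, which catalyses the last step of cholesterol synthesis, averaged 8.60 ± 0.08 at day 12.5 and 7.48 ± 0.13 in non-pregnant islets, a rise of 1.13 ± 0.10 (adjusted p = 7.48e-10). The synthesis enzymes Sqle and Ebp rose by 0.50 each (adjusted p = 2.6e-05 and 0.000886), whereas the cholesterol exporter Abca1 fell by 0.75 ± 0.11 (adjusted p = 8.04e-06).

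Of 64 measured subunits of oxidative phosphorylation, 11 were called higher and 0 lower, which is 17.2% higher against 4.08% of all genes, and 53 were not called. A positive difference was found for 60 of the 64, against 9189 of all 19938 genes, and the median was 0.18 against 0.00. The largest rises were those of Uqcrq, a subunit of complex III (0.53 ± 0.09, adjusted p = 0.000152), Atp5g1, which encodes subunit c of the ATP synthase (0.50 ± 0.08, adjusted p = 7.63e-05), and Ndufa4 (0.43 ± 0.07, adjusted p = 0.000162). The count was 6 without day 12.5 replicate 2 or without non-pregnant replicate 1, and 7 without non-pregnant replicate 4. Of 22 glycolysis and pyruvate genes, 3 were higher (13.6%) and 1 lower (4.55%), against 4.08% and 1.19% of all genes. In a model of only these 2 groups 0 were higher, and after quantile normalization 1 was. The lower gene, the gluconeogenic enzyme Fbp1 (−0.45, adjusted p = 0.0354), lost its call without day 12.5 replicates 2, 3 or 4 (0.0619, 0.127 and 0.0817) or non-pregnant replicate 2 (0.184). The largest rise was that of G6pc2, the islet glucose-6-phosphatase that opposes glucokinase. It had 12.9, 13.0, 13.2 and 13.1 at day 12.5, against 12.3, 12.7, 12.8 and 12.8 in non-pregnant islets, a difference of 0.40 (adjusted p = 0.00484), or 0.28 (adjusted p = 0.0425) without non-pregnant replicate 1. In a model of only these 2 groups G6pc2 was not called (0.0847).

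Genes of cell division were widely raised. Of 69 measured genes of mitosis and the G2/M phase, 44 were called higher and 0 lower, or 63.8% of the list, where 4.08% of all genes were higher. All 69 differences were positive, from 0.05 to 1.30, with a median of 0.40. With 1 array left out, 35 to 42 were called higher. Top2a, the topoisomerase that untangles replicated chromosomes, had 7.1, 6.8, 6.9 and 6.8 at day 12.5, against 5.5, 5.8, 5.7 and 5.4 in non-pregnant islets. The groups did not overlap, and the rise was 1.30 ± 0.16 (2.46-fold, adjusted p = 8.03e-07). Mki67, which encodes the proliferation antigen Ki-67, had 6.6, 6.6, 6.5 and 6.6 at day 12.5 and 5.4, 5.5, 5.8 and 5.9 in non-pregnant islets, a rise of 0.93 ± 0.14 (adjusted p = 1.72e-05). The mitotic kinase Pbk rose by 1.13 ± 0.16, cyclin A2 (Ccna2) by 0.93 ± 0.12, and the spindle proteins Kif11 and Prc1 by 0.90 each.

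Genes of DNA replication and S phase followed with smaller differences. Of 52 measured, 26 were called higher and 0 lower, which is 50% of the list, and the median was 0.33. With 1 array left out, 20 to 26 were called higher. Rrm2, the regulated subunit of ribonucleotide reductase, averaged 6.15 ± 0.13 at day 12.5 and 5.30 ± 0.24 in non-pregnant islets, a rise of 0.85 ± 0.11 (adjusted p = 3.28e-06). The helicase subunits Mcm3 and Mcm6 rose by 0.83 ± 0.13 (adjusted p = 6.5e-05) and 0.65 ± 0.12 (adjusted p = 0.00042), the maintenance methylation cofactor Uhrf1 by 0.70 ± 0.12 and the polymerase clamp Pcna by 0.68 ± 0.10 (adjusted p = 2.56e-05). Both lists lay near or below the middle of the array: the mitosis list had array means of 5.65 to 5.75 at day 12.5 and 5.19 to 5.26 in non-pregnant islets, and the S-phase list 6.43 to 6.58 and 6.16 to 6.22 in the same order.

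Among 22 regulators of the cell cycle, 5 were called higher and 0 lower, or 22.7% higher against 4.08% of all genes. Besides Myc these were Cdkn2c, the inhibitor p18, at 6.98 ± 0.26 at day 12.5 and 6.15 ± 0.10 in non-pregnant islets (difference 0.83, adjusted p = 9.34e-05), the mitotic transcription factor Foxm1 (0.43 ± 0.10, adjusted p = 0.00442), the pocket protein Rbl1 (0.38) and the histone methyltransferase Ezh2 (0.35). The count was 3 without day 12.5 replicate 1 or non-pregnant replicate 4. Rbl1 lost its call without either of these arrays (adjusted p = 0.0741 and 0.102), and Ezh2 without any one of the 8 (from 0.0728 to 0.136). The D cyclins that drive beta cells into the cycle were not called, with Ccnd1 at 10.00 ± 0.14 at day 12.5 and 9.75 ± 0.21 in non-pregnant islets (adjusted p = 0.162) and Ccnd2 at 12.08 ± 0.05 and 12.10 ± 0.14. Menin (Men1), a tumour suppressor reported to be lowered in mouse islets in pregnancy, had 8.53 ± 0.05 at day 12.5 and 8.30 ± 0.12 in non-pregnant islets (adjusted p = 0.085), and the inhibitor Cdkn1b had 8.73 ± 0.10 and 8.88 ± 0.05 (adjusted p = 0.416).

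Promoters of mitotic genes are known for the cell cycle homology region, TTTGAA, and those of S-phase genes for sites of E2F factors, searched here as TTTGGCGC and TTTCCCGC. A window of each kind is shown with both strands' matches in capitals.
Top2a (chr11:99024140-99024439, minus strand): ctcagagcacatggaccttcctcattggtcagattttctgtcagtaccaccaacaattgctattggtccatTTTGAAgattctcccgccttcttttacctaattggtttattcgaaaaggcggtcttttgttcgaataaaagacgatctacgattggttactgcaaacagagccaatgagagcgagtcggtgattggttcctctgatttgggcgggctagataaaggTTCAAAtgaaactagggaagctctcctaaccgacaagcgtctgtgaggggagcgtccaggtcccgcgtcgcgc
Mki67 (chr7:135716330-135716629, minus strand): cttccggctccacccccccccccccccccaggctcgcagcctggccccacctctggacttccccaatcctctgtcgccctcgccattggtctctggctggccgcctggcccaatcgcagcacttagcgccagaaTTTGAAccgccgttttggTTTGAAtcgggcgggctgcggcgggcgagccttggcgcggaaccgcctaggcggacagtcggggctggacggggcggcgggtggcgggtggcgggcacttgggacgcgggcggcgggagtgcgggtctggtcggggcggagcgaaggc
Mcm6 (chr1:128359656-128359955, minus strand): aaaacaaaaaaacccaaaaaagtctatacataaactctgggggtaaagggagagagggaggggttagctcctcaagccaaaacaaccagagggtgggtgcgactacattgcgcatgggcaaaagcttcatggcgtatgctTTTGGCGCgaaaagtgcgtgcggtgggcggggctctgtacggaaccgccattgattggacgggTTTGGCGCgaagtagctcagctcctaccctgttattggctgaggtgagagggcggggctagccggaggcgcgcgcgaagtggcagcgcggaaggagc
TTTGAA was found in 70% of the windows of the mitosis list (40 of 56 genes with a window), in 15.3% of those of all genes called higher and in 17.9% of all windows. Of the 40 genes with the motif 26 were called higher, and of the 16 without it 9 were. The E2F letters were found in 27.5% of the S-phase windows (14 of 42 genes), in 4.04% of those of genes called higher and in 1.56% of all windows. Of the 14 genes with them 7 were called higher, and of the 28 without them 17 were. The difference between members with and without a match was not tested.

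**Figure D2:**
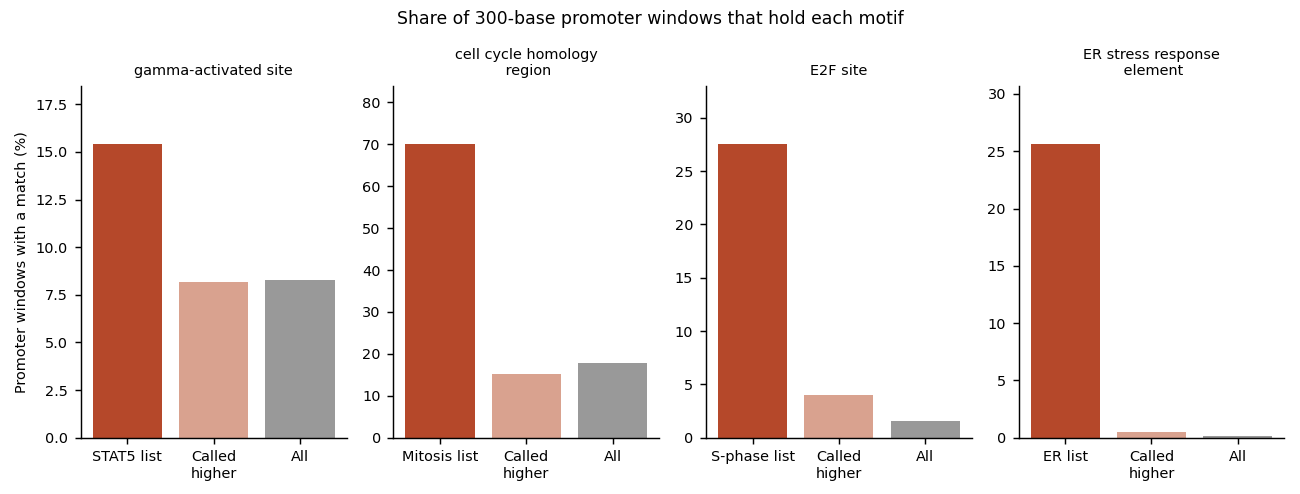
Share of 300-base RefSeq promoter windows holding each motif (percent, each panel with its own axis from 0), with the gene list named under the first bar, all genes called higher at day 12.5 in the second and all 32851 windows in the third. TTTGAA stands in 70% of mitosis windows and 17.9% of all windows, the E2F letters in 27.5% of S-phase windows and 1.56% of all, and the ER stress letters in 25.6% of ER chaperone windows and 0.119% of all.

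The machinery that folds and exports secreted proteins rose by small steps across many genes. Of 36 measured chaperones and degradation factors of the endoplasmic reticulum (ER), 17 were called higher and 0 lower. That is 47.2% higher, against 4.08% of all genes. A positive difference was found for 35, and the median was 0.25. With 1 array left out, the count of 17 ranged from 12 (day 12.5 replicates 1 or 2) to 21 (day 12.5 replicate 4). It was 13 after quantile normalization. Derl3, a component of the channel that retrieves misfolded proteins from the ER, had 7.9, 7.7, 7.6 and 7.5 at day 12.5, against 6.6, 6.7, 6.5 and 6.6 in non-pregnant islets. The groups did not overlap, and it rose by 1.08 ± 0.09 (2.11-fold, adjusted p = 7.48e-10). The prolyl isomerase Fkbp11 rose by 0.93 ± 0.08 (adjusted p = 1.99e-09) and Edem1, which hands misfolded glycoproteins to degradation, by 0.83 ± 0.08 (adjusted p = 6.33e-09). Sdf2l1, a member of the ER chaperone complex, rose by 0.65 ± 0.09 and Edem2 by 0.60 ± 0.08.

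Of 40 measured genes of translocation into the ER and export from it, 21 were higher and 0 lower. That is 52.5% higher, against 4.08% of all genes, and the median was 0.26. These genes already stood at high levels, with list means of 9.81 to 9.99 on the day 12.5 arrays and 9.65 to 9.72 on the non-pregnant arrays. Ssr4 of the translocon-associated complex rose by 0.53 ± 0.07 (adjusted p = 4.74e-06), the oligosaccharyltransferase subunit Dad1 by 0.48 ± 0.07 (adjusted p = 1.13e-05) and the signal peptidase subunit Spcs1 by 0.48 ± 0.08. The count of 21 was 13 without day 12.5 replicate 1 and 12 after quantile normalization.

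Of 25 stress response genes of the PERK-ATF4 branch, 4 were called higher (16%) and 1 lower (4%), against 4.08% and 1.19% of all genes. A positive difference was found for 18, and the median was 0.13 against 0.00 for all genes. Nupr1, a stress-induced chromatin protein, had 8.5, 8.2, 8.3 and 8.7 at day 12.5 and 7.3, 7.7, 7.1 and 7.3 in non-pregnant islets, a rise of 1.08 ± 0.17 (adjusted p = 4.82e-05). The mitochondrial folate enzyme Aldh1l2 rose by 0.65 ± 0.13 (adjusted p = 0.00122) and asparagine synthetase Asns by 0.35 ± 0.08 (adjusted p = 0.0068). The fourth, the serine hydroxymethyltransferase Shmt2 (0.38, adjusted p = 0.0169), lost its call without day 12.5 replicate 2 (0.0548) or non-pregnant replicate 3 (0.0869). Ddit4, an inhibitor of mTORC1, fell by 0.53 ± 0.11 (adjusted p = 0.00169). Of 32 ribosome biogenesis genes 0 were called and their median was 0.05.

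The ER stress response element, a longer motif searched on both strands, is known from promoters of ER chaperones and is bound by ATF6 with NF-Y. The window of Derl3, the largest rise of its list, holds it on the opposite strand and is shown with the match in capitals.
Derl3 (chr10:75893148-75893447, plus strand): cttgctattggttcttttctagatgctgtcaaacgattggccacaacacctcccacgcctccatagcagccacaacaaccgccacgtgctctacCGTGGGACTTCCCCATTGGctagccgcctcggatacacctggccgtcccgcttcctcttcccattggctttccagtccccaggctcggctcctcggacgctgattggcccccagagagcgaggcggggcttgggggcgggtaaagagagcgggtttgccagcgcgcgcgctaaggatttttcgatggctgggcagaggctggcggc
The match began at position −156. The element was found in 25.6% of the windows of the ER chaperone list (10 of 33 genes), in 0.475% of the windows of genes called higher and in 0.119% of all windows. Of the 10 genes with it 4 were called higher, and of the 23 without it 11 were.

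**Figure D3:**
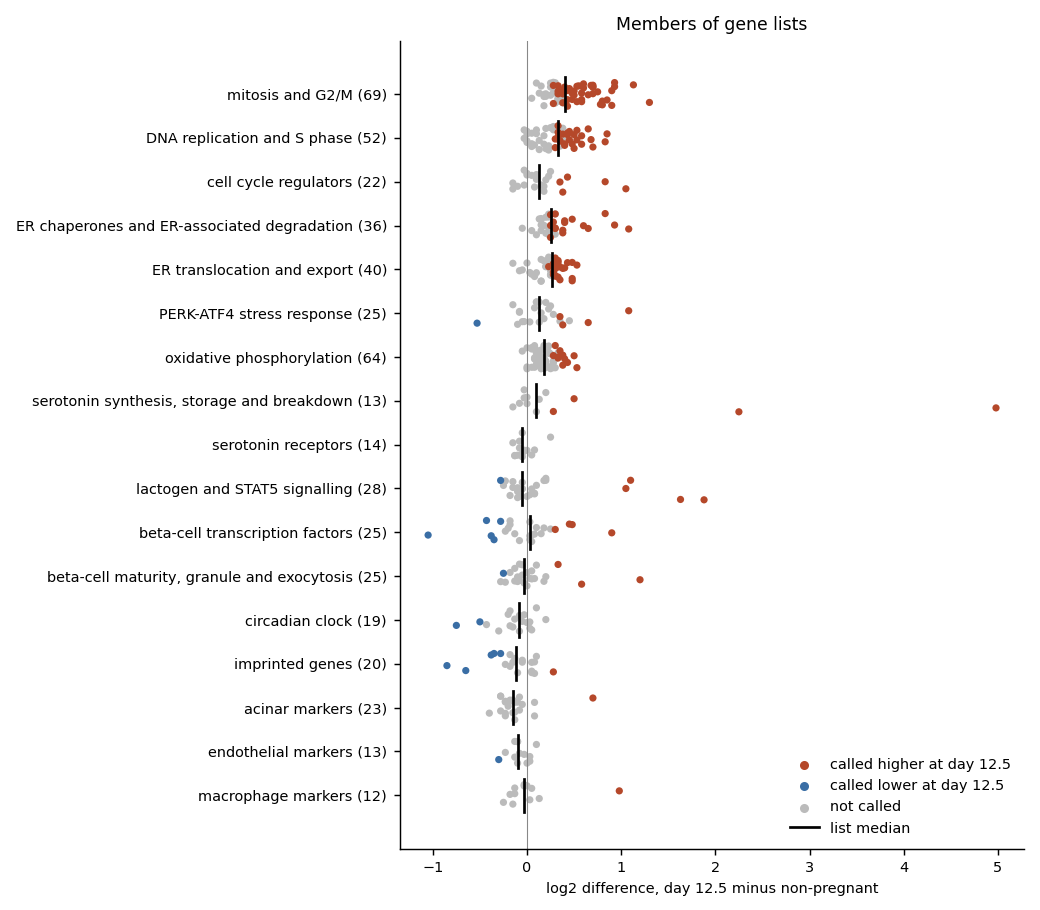
Log2 difference, day 12.5 minus non-pregnant, of every measured member of 17 gene lists (number of members in brackets), with red points for genes called higher, blue for lower and grey for neither, and a black bar at the list median. Mitosis genes lie wholly to the right of 0 with a median of 0.40, S-phase genes have a median of 0.33 and both ER lists 0.25 and 0.26, while the serotonin list has a median of 0.10 with Tph1 far out at 4.98.

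Hormone transcripts were not called either way. Ins2 had 12.7, 12.7, 12.7 and 12.6 at day 12.5, against 11.9, 12.7, 12.7 and 12.7 in non-pregnant islets, where replicate 1 is the array that stood apart. The difference was 0.18 (adjusted p = 0.454) with all arrays and −0.03 (adjusted p = 0.912) without that replicate. Gcg (0.15), Iapp (0.20) and Sst (0.08) likewise had differences of −0.10, −0.02 and −0.13 without it, with adjusted p of 0.464, 0.949 and 0.472. The sign of these 4 differences turned when that array was left out. Ppy had a difference of 0.13 (adjusted p = 0.843) with it and 0.02 (0.983) without it.

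Single genes of the secretory granule differed. Chgb, the granule protein chromogranin B, had 12.2, 12.1, 12.2 and 12.2 at day 12.5, against 10.8 to 11.1 (mean 10.98 ± 0.13, SD, n = 4) in non-pregnant islets. The lowest day 12.5 array lay 1.0 above the highest non-pregnant one, and the rise was 1.20 ± 0.08 (2.30-fold, adjusted p = 1.99e-12), or 1.14 without non-pregnant replicate 1. Pcsk1, the convertase that begins the cutting of proinsulin, had 11.9, 11.8, 12.0 and 11.9 at day 12.5 and 11.2, 11.3, 11.4 and 11.4 in non-pregnant islets, a rise of 0.58 ± 0.07 (adjusted p = 2.61e-07), or 0.53 without non-pregnant replicate 1. Of 25 genes of beta-cell maturity, granule and exocytosis, 3 were higher (12%) and 1 lower (4%), against 4.08% and 1.19% of all genes. The median was −0.03, and 13 had a negative difference. After quantile normalization 3 were higher and 8 lower, with a median of −0.11. The granule protein Chga was not called, at 0.03 (adjusted p = 0.933), or −0.13 (0.462) without non-pregnant replicate 1. The third higher gene was the small GTPase Rab3a (0.33, adjusted p = 0.00545), and the lower one was the priming factor Unc13a. The fall of Unc13a (−0.25, adjusted p = 0.0265) was lost without day 12.5 replicates 1 or 3 (0.0906 and 0.0844) or non-pregnant replicates 1 or 2 (0.105 and 0.117). The maturity marker Ucn3 averaged 10.70 ± 0.08 in both groups, and the glucose transporter Slc2a2 11.88 ± 0.05 at day 12.5 and 11.95 ± 0.10 in non-pregnant islets (adjusted p = 0.716). Of 20 genes normally kept low in beta cells, 0 were called.

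Beta-cell transcription factors moved both ways, with 4 of 25 higher (16%) and 5 lower (20%) and a median of 0.03. The shares of all genes were 4.08% higher and 1.19% lower. Sox4, a factor of endocrine development, had 7.1, 7.4, 7.2 and 7.1 at day 12.5, against 7.9, 8.4, 8.6 and 8.1 in non-pregnant islets. The groups were separate and Sox4 fell by 1.05 ± 0.13 on the log2 scale (2.07-fold lower, adjusted p = 9.48e-07). Ovol2, a zinc-finger factor of epithelial identity, had 7.8, 7.9, 7.8 and 8.0 at day 12.5 and 7.2, 6.9, 6.9 and 6.9 in non-pregnant islets, a rise of 0.90 ± 0.09 (adjusted p = 8.64e-09). Rfx6, needed for islet formation, fell by 0.38 ± 0.08 (adjusted p = 0.00326).

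Several of these calls were weak. Mafa and Pdx1, activators of the insulin gene, had differences of 0.45 (adjusted p = 0.0212) and 0.30 (adjusted p = 0.0384). The call of Mafa ended without day 12.5 replicate 1 (0.108) or non-pregnant replicates 2, 3 or 4 (0.118, 0.0857 and 0.0604). That of Pdx1 ended without day 12.5 replicates 1, 3 or 4 (0.0508, 0.15 and 0.0825) or non-pregnant replicates 2, 3 or 4 (0.122, 0.116 and 0.0661). The 4 higher factors were 2 without day 12.5 replicate 3 or without non-pregnant replicates 2, 3 or 4, and the 5 lower ones were 3 without day 12.5 replicate 1 or non-pregnant replicates 1 or 2. Nkx6-1, which keeps beta-cell identity, had 10.00 ± 0.08 at day 12.5 and 9.95 ± 0.10 in non-pregnant islets (adjusted p = 0.865). Among 19 genes of glucose sensing channels and receptors, Gpr119, a lipid receptor coupled to insulin secretion, rose by 0.68 ± 0.12 (adjusted p = 0.000253). The calcium channel Cacna1c was the 1 lower gene of that list (−0.28, adjusted p = 0.0437), and its call ended without any one array except non-pregnant replicate 3 (0.0534 to 0.156). The list had 2 higher genes without non-pregnant replicate 1, 2 lower genes without non-pregnant replicate 3, and 4 lower genes with a median of −0.13 after quantile normalization.

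Falls were fewer and smaller than rises. Rgs2, which shortens signalling by G proteins, fell most, with 7.3, 7.3, 7.9 and 7.2 at day 12.5 against 8.8, 9.9, 10.0 and 9.2 in non-pregnant islets. The groups did not overlap, although day 12.5 replicate 3 stood above the other three, and the fall was −2.05 ± 0.27 (4.14-fold lower, adjusted p = 2.42e-06). Rgs16 of the same family fell by 0.48 ± 0.11 (adjusted p = 0.00426), and the other 16 of 18 measured RGS genes were not called. Mdm1, a microtubule-binding protein of centrioles, had 7.9, 8.0, 8.1 and 8.1 at day 12.5 and 8.8, 9.0, 9.3 and 9.4 in non-pregnant islets (−1.10 ± 0.14, adjusted p = 1.22e-06). Depp1, a target of FOXO factors, and the deubiquitinase Usp51 each fell by 0.98 (adjusted p = 0.00111 and 0.000103), and the cadherin Pcdh15 of hair cells fell by 0.95 ± 0.09 (adjusted p = 1.12e-08).

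Piga, of glycolipid anchor synthesis, and the imprinted zinc-finger gene Zim1 fell by 0.85 each (adjusted p = 2.03e-06 and 7.64e-06), and the antiproliferative gene Btg1 fell by 0.75 ± 0.11. Zbtb16 also fell by 0.85, but its non-pregnant values of 6.1, 6.3, 7.5 and 7.2 were scattered against 5.9, 6.0, 6.0 and 5.8 at day 12.5. Its call (adjusted p = 0.0224) ended without day 12.5 replicates 1 or 4 (0.0571 and 0.061) or non-pregnant replicates 3 or 4 (0.151 and 0.112). Fkbp5, a cochaperone of the glucocorticoid receptor, fell by 0.80 ± 0.14 (adjusted p = 0.000188), tyrosine aminotransferase Tat by 0.73 ± 0.09 (adjusted p = 1.34e-06) and the receptor feedback inhibitor Errfi1 by 0.73 ± 0.16 (adjusted p = 0.00326). Of 20 measured imprinted genes, 5 were lower (25%) and 1 higher (5%), against 1.19% and 4.08% of all genes, with a median of −0.11. The higher gene, Igf2r, kept its call only without day 12.5 replicate 4 or non-pregnant replicate 1 when single arrays were left out. Of the lower genes only Zim1 and the amino acid transporter Slc38a4 (−0.38, adjusted p = 0.00136) kept their calls when any one array was left out, and the 5 were 2 without non-pregnant replicate 2 and 3 without day 12.5 replicate 2 or non-pregnant replicate 3.

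Of 19 circadian clock genes, 2 were lower and 0 higher, or 10.5% lower against 1.19% of all genes. The repressor Cry2 had 8.6, 8.8, 9.0 and 8.7 at day 12.5, against 9.3, 9.6, 9.7 and 9.5 in non-pregnant islets, with separate groups (−0.75 ± 0.12, adjusted p = 8.11e-05). Per1 fell by 0.50 ± 0.10 (adjusted p = 0.00173). Among 33 immediate-early and heat-shock genes 2 were higher and 2 lower, against 4.08% and 1.19% of all genes. Jun was at 0.60 ± 0.10 (adjusted p = 6.21e-05) and the phosphatase Dusp1 at −0.50 ± 0.12 (adjusted p = 0.0068). The other pair, Jund and the chaperone Hsph1, was less firm: 1 gene was higher and 1 lower without day 12.5 replicates 2 or 3 or non-pregnant replicates 3 or 4, 1 was higher without day 12.5 replicate 1, and 1 was lower without day 12.5 replicate 4.

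Markers of other cell types were checked next, and their counts stand beside 4.08% higher and 1.19% lower of all genes. Acinar markers, which report exocrine tissue carried over in islet isolation, had array means of 7.94 to 9.07 at day 12.5 and 7.44 to 9.36 in non-pregnant islets, and 1 of 23 was called. That gene, Bhlha15, a factor of secretory cells, had 8.8, 8.8, 8.5 and 8.7 at day 12.5 and 8.5, 7.5, 7.7 and 8.3 in non-pregnant islets, with overlap (0.70 ± 0.16, adjusted p = 0.00452). The other acinar markers were not called and the list median was −0.15, a value that single arrays moved. It was 0.08 without day 12.5 replicate 1 or non-pregnant replicate 2, −0.35 and −0.33 without day 12.5 replicates 2 and 4, −0.64 without non-pregnant replicate 3, and −0.07, −0.04 and −0.08 without day 12.5 replicate 3 and non-pregnant replicates 1 and 4. In a model of only these 2 groups Bhlha15 was not called (0.062). Of 8 beta-cell markers 3 were higher, with array means of 11.34 to 11.40 at day 12.5 and 11.03 to 11.26 in non-pregnant islets. These 3 (G6pc2, Mafa and Pdx1) were 1 without day 12.5 replicate 1 or non-pregnant replicates 2, 3 or 4, and 0 in a model of only these 2 groups. Slc7a2, an amino acid transporter, was lower among 6 alpha-cell markers (−0.40, adjusted p = 0.000703), and the list held 2 lower genes without day 12.5 replicate 4 or non-pregnant replicate 1. Etv1 was lower among 3 markers of pancreatic polypeptide cells (−0.40, adjusted p = 0.00369), and the adhesion molecule Epcam was higher among 8 duct markers (0.38, adjusted p = 0.0049). Of 13 endothelial markers 1 was lower (Ptprb), and of 13 stellate and 8 lymphocyte markers 0 were called. Endothelial means were 7.59 to 7.78 at day 12.5 and 7.68 to 7.86 in non-pregnant islets. The call of Ptprb (−0.30, adjusted p = 0.0439) ended without any of the 4 day 12.5 arrays (0.0672 to 0.117) or without non-pregnant replicates 1, 2 or 3 (0.109, 0.18 and 0.064), and 2 endothelial markers were lower without non-pregnant replicate 4.

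One macrophage marker departed from its list. C1qa, a chain of the first complement component, had 9.5, 9.5, 9.6 and 9.7 at day 12.5, against 8.5, 8.9, 8.6 and 8.4 in non-pregnant islets, and rose by 0.98 ± 0.11 (1.97-fold, adjusted p = 3.14e-07). Its partner chains C1qb (−0.03, adjusted p = 0.933) and C1qc (0.05, adjusted p = 0.93) were not called, nor were the other 9 of the 12 macrophage markers, and the list means were 5.92 to 6.07 at day 12.5 and 5.85 to 6.05 in non-pregnant islets. Of 16 sex-linked and hormone receptor genes 3 were lower (18.8%) and 1 higher (6.25%), against 1.19% and 4.08% of all genes. The higher gene, the oestrogen receptor Esr1, had 6.3, 6.2, 6.0 and 6.1 at day 12.5 and 5.5, 5.7, 5.6 and 5.8 in non-pregnant islets (0.50 ± 0.09, adjusted p = 0.000336). The lower ones were Fkbp5 and the receptors Thra and Nr3c1, and the last 2 both lost their calls without day 12.5 replicates 1, 2 or 4 or non-pregnant replicates 1, 2 or 3, which left 1. The survival kinase Akt1 rose by 0.53 ± 0.06 (adjusted p = 4.32e-07) among 20 apoptosis and survival genes. Alas2, the heme enzyme of red-cell precursors, rose by 0.53 ± 0.11 at a low level, with 5.5 to 5.9 at day 12.5 and 4.9 to 5.4 in non-pregnant islets.

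Day 12.5 was next set against its neighbours in time, using the same 4 day 12.5 arrays. Against day 9.5, 643 genes were called (3.22% of those tested), 342 higher (1.72%) and 301 lower (1.51%) at day 12.5. Of 69 mitosis genes, 27 were lower and 0 higher at day 12.5 than at day 9.5, with a median of −0.30, and 3 of 52 S-phase genes were lower with a median of −0.18. Top2a had 7.1, 6.8, 6.9 and 6.8 at day 12.5 and 7.7, 7.6, 7.9 and 7.7 at day 9.5, a difference of −0.83 ± 0.16 (adjusted p = 0.0102) without overlap. Igfbp3, a binding protein of insulin-like growth factors, was 0.78 lower (−0.78 ± 0.08, adjusted p = 1.76e-06). In the other direction Lrrc55 was higher by 1.03 ± 0.17 (adjusted p = 0.00594), with 8.2 to 8.5 at day 12.5 and 6.9 to 8.0 at day 9.5, and Cldn8 by 0.93 ± 0.18 (adjusted p = 0.00984).

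The SD of the values was 1.81 to 1.86 on the day 12.5 arrays and 1.87 to 1.95 on the day 9.5 arrays. These ranges do not overlap, so array SD and day cannot be told apart here. The part of SD in the differences was not tested. With that SD as a covariate 10 genes were called, 0 of the mitosis list, although its median was still −0.25, and neither Top2a (−0.56, adjusted p = 0.33) nor Cldn8 (1.01, adjusted p = 0.0687) was called, although the difference of Cldn8 was no smaller. Leaving out day 12.5 replicates 1, 2 or 4 in turn gave 189, 387 or 70 calls in place of 643, and leaving out day 9.5 replicates 1, 3 or 4 gave 1401, 37 or 58. The 27 lower mitosis genes were 5 without day 12.5 replicate 4, 2 without day 9.5 replicate 3 and 9 without day 9.5 replicate 4. The 3 lower S-phase genes were 11 without day 9.5 replicate 1, 1 without day 9.5 replicate 2 or day 12.5 replicates 1 or 3, and 0 without day 12.5 replicate 4 or day 9.5 replicates 3 or 4, or with the SD as a covariate. Top2a lost its call without day 9.5 replicate 3 (0.0507), and Lrrc55 (0.0533) and Cldn8 (0.06) in a model of only these 2 groups. Igfbp3 kept its call under every alternative run.

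Against day 15.5, 0 genes were called by limma (0% of those tested), with a lowest adjusted p of 0.156, and 2347 had an unadjusted p under 0.05. The mitosis list had a median of 0.10 for day 12.5 minus day 15.5, and both ER lists 0.05 and 0.03. Lrrc55 was at −0.53 and Cldn8 at −0.25, neither called. A missed threshold does not show that these days are alike. The count was 6 without day 15.5 replicate 1, and 1 each without day 12.5 replicate 3 or day 15.5 replicate 4.

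**Figure D4:**
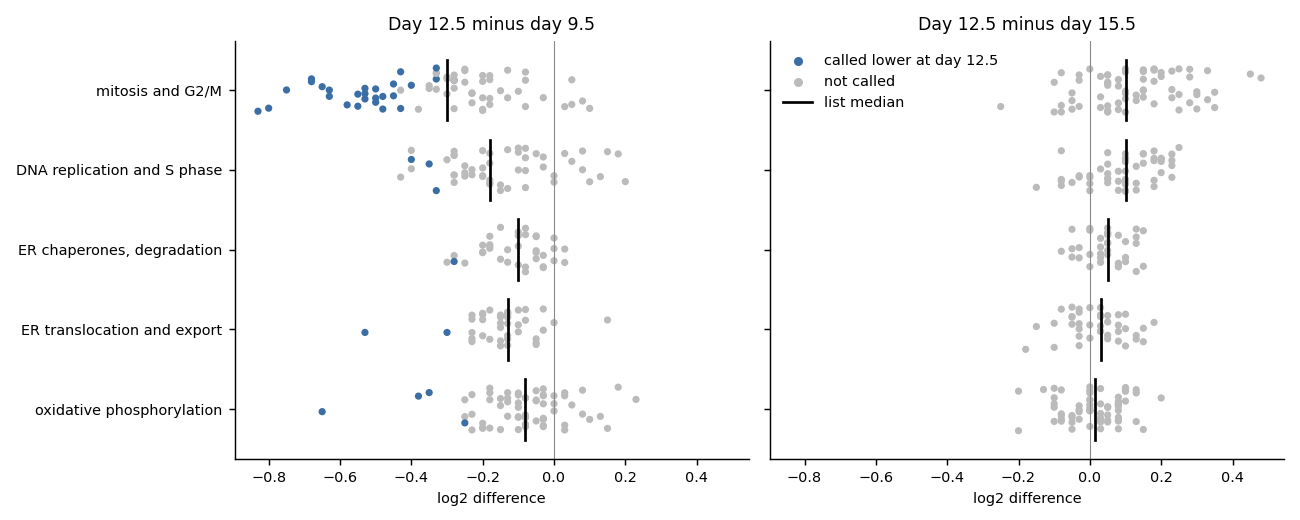
Log2 difference of members of 5 lists between day 12.5 and day 9.5 (left) and between day 12.5 and day 15.5 (right), with blue points for genes called lower at day 12.5, grey for not called and a black bar at each list median. Mitosis genes centre on −0.30 against day 9.5, with 27 called, and on 0.10 against day 15.5, with 0 called.

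Group means over pregnancy place day 12.5 in the course of each gene. Tph1 was at 4.45 ± 0.39 in non-pregnant islets, 4.30 ± 0.17 at day 3.5, 5.23 ± 0.22 at day 6.5, 8.58 ± 0.39 at day 9.5, 9.43 ± 0.42 at day 12.5, 9.30 ± 0.24 at day 15.5 and 8.90 ± 0.16 at day 18.5. Its highest mean fell on day 12.5, but days 12.5 and 15.5 differed by 0.13, less than their SDs. The means of Lrrc55 rose over the later days, with 7.40 ± 0.54 at day 9.5, 8.43 ± 0.15 at day 12.5, 8.95 ± 0.25 at day 15.5 and 9.58 ± 0.13 at day 18.5. Its step from day 12.5 to day 15.5 was not called, and that from day 15.5 to day 18.5 was not tested. Top2a was highest at day 9.5 (7.73 ± 0.13), with 6.90 ± 0.14 at day 12.5 and 6.55 ± 0.06 at day 15.5. Each day's comparison with non-pregnant islets shares the same 4 non-pregnant arrays.

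**Figure D5:**
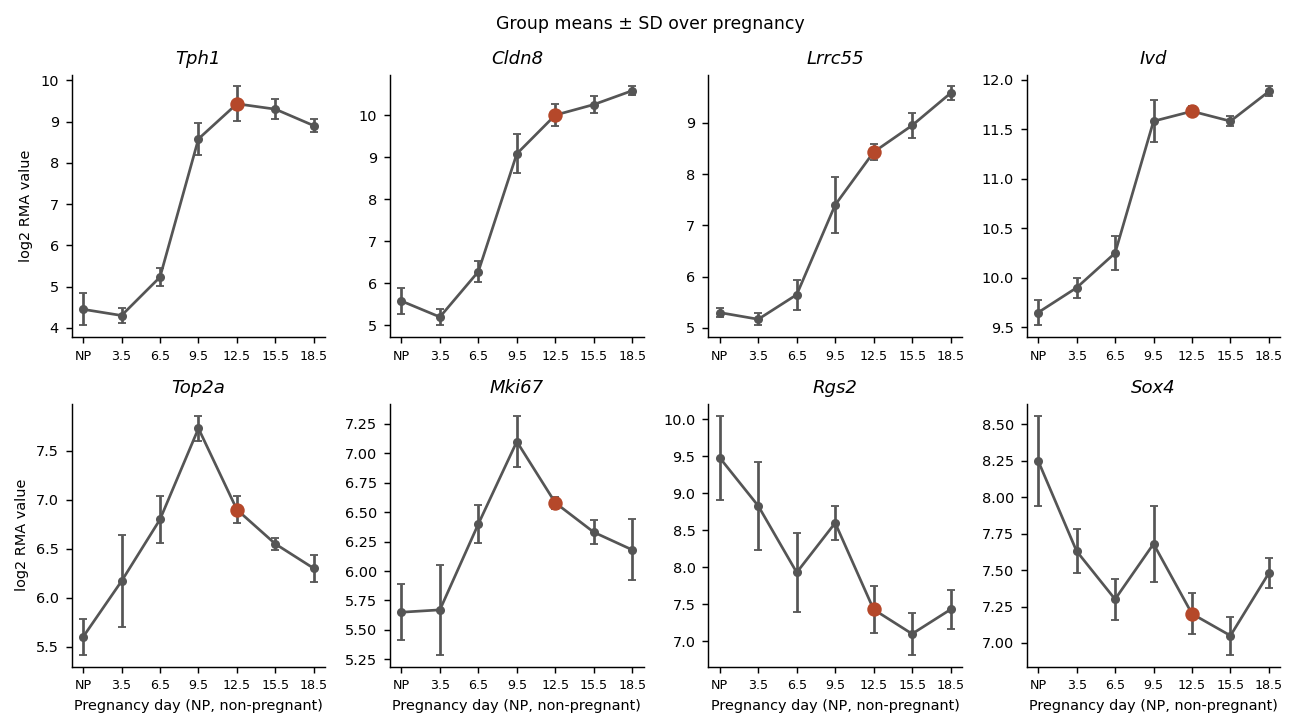
Mean ± SD of log2 RMA values over non-pregnant islets (NP) and pregnancy days 3.5 to 18.5 (3 arrays at day 3.5, 4 in every other group), with day 12.5 in red. Tph1 has its highest mean at day 12.5 (9.43), Lrrc55 is below its day 18.5 mean of 9.58, Top2a is below its day 9.5 mean of 7.73, and Rgs2 is at 7.43, against 9.48 in non-pregnant islets.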

How the data were processed

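Total RNA of islets was hybridized to Affymetrix Mouse Gene 1.0 ST arrays. The deposited values are log2 expression per probe set, made by the authors with RMA in Affymetrix Expression Console per the submitters' processing notes, and rounded to 1 decimal. Which arrays were normalized together was not given in the sources used here. RMA pulls the arrays towards 1 distribution, so differences are relative to the other genes of an array.

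Of 35556 probe sets, 21789 had exactly 1 gene symbol, 1621 had several and 12146 had none. Of several probe sets of a symbol the brightest on average over the 39 arrays was kept, which left 19938 genes, of which 19856 matched RefSeq. Groups came from the sample labels. limma 3.58.1 (lmFit and eBayes, R 4.3.3) was fitted to 31 C57bl6/J arrays with 1 mean per group, and p-values were adjusted over all genes by Benjamini-Hochberg with a threshold of 0.05. Python 3.11.15 served for summaries (pandas 2.3.3, numpy 2.4.6) and plots (matplotlib 3.10.9). On simulated data with 100 genes changed at each size, 77% were recovered at a log2 difference of 0.5 and 100% at 1, and 7 unchanged genes were called.

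Genes were named by a rule: the 15 largest rises and falls among called genes with separate groups, up to 6 called members of each gene list (or the 2 largest differences where none was called), a set of islet and pregnancy genes whatever their result, and up to 8 genes each way against days 9.5 and 15.5. The separation of those rises and falls was therefore set by the rule. C1qb and C1qc were added after their values were seen. The members and lists were chosen with earlier results of these data known. Of 950 list members 874 were measured, and the other 76 were not analysed here. Alternatives covered the samples in the model, scaling, filtering, probe set choice, variance model, covariates, a replicate block and leaving out each array.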

Additional observations from a re-analysis of the deposited data

Results flagged for a closer look

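The cutoff for an array far from its group flags about 1 in 20 groups of independent, unrounded, normal values. The values here were rounded and the genes share arrays, so that rate need not hold. Among 73 groups of 4 arrays checked, 7 held an array far from the others. In 4 of them the array was non-pregnant replicate 1, at 13.0 for Gcg, 13.0 for Iapp, 11.9 for Ins2 and 12.9 for Sst, below the lowest day 12.5 arrays of 13.9, 13.8, 12.6 and 13.5. Lrrc55 was at 8.2 on day 12.5 replicate 1, against 8.5 on the other day 12.5 arrays. Rgs2 was at 7.9 on day 12.5 replicate 3, above 7.2 to 7.3 on the others. Xist was at 10.5 on non-pregnant replicate 2, above 10.2 on the others.

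Of the genes with the largest changes from non-pregnant islets, 13 also differed between day 12.5 and day 9.5 in limma's test of that difference. They had been picked on the same day 12.5 arrays, which favours a further difference in the same direction, and all 13 went that way. Their number is therefore a description and cannot be weighed against the 3.22% of all genes called against day 9.5. Higher at day 12.5 were Lrrc55 (1.03), Cldn8 (0.93), Tph1 (0.85), Tnfrsf11b (0.75), Sftpd (0.55) and Ehhadh (0.38). Lower at day 12.5 were Rgs2 (−1.18), Errfi1 (−0.65), Mdm1 (−0.50), Sox4 (−0.48), Cry2 (−0.43), Piga (−0.43) and Btg1 (−0.40). These calls belong to the 643 genes whose number fell to 10 with each array's SD as a covariate. That SD cannot be told apart from the day, since the ranges of the 2 days do not overlap. Of the 13, 2 (Lrrc55 and Cldn8) kept their call whichever 1 array was left out. The number of alternatives that ended the call was 1 for Lrrc55, 2 for Sftpd, 3 each for Cldn8 and Tnfrsf11b, 6 for Rgs2, 8 for Errfi1, 9 for Sox4, 10 each for Btg1, Mdm1, Piga and Tph1, 11 for Cry2 and 13 for Ehhadh.

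Probe sets without exactly 1 gene symbol were tested apart from the genes, and 56 of 13767 were called against non-pregnant islets, 43 higher and 13 lower at day 12.5, which is 0.407% of them.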

How the results depend on the processing

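Counts of genes called against non-pregnant islets stayed within 1.5 times 1051 under every alternative run (750 to 1399), and without 1 array they were 786 to 961 (589 to 769 higher and 141 to 262 lower). The lower genes numbered 156 with only the 2 groups in the model, 510 after quantile normalization, 128 with arrays centred on their medians, 434 with array weights and 468 with the array SD as a covariate. Of 126 named genes called, 91 kept their call under all 20 alternatives, 35 lost it under at least 1, and 0 changed sign.

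Against day 9.5 the counts moved more. In place of 643, 89 were called with only the 2 groups (44 higher, 45 lower), 199 after quantile normalization (69 higher, 130 lower), 332 after centring (171 higher, 161 lower), 1242 with array weights (639 higher, 603 lower) and 10 with the array SD (5 higher, 5 lower). Without 1 array they were 37 to 1401 (23 to 731 higher and 13 to 670 lower). Against day 15.5, 1 gene was called after centring (1 lower), and 0 to 6 without 1 array (0 to 3 higher and 0 to 3 lower). The cause was not tested.

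With the replicate number as a block, 1046 genes were called against non-pregnant islets (806 higher, 240 lower), 1014 of them shared with the 1051. Deviations of same-numbered arrays had correlations of −0.0288, 0.172, 0.0855 and 0.306. Day 12.5 replicates 2, 3 and 4 correlated best with their own number, and replicate 1 with non-pregnant replicate 3 (0.174). The labels tie no number to an animal, litter or batch, so no pairing was assumed, and the check cannot exclude one.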

Other observations

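A list of 22 genes that glucocorticoids are known to induce or repress was put together late. The values of Fkbp5, Zbtb16, Errfi1 and Tat had been seen by then, and other results of these data were known. Its counts may reflect that choice of members, so they are a description and carry no test. Of its members 9 were lower (40.9%) and 1 was higher (4.55%) at day 12.5 than in non-pregnant islets, against 1.19% and 4.08% of all genes. Fkbp5, Zbtb16, Errfi1 and Tat were themselves called lower. The list's median difference was −0.20, against 0.00 for all genes. List means were 7.48 to 7.52 on the day 12.5 arrays and 7.64 to 7.90 on the non-pregnant arrays.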
